A study of Mus musculus with 23 samples.

Results

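The 10 genes described here, S100a8, S100a9, Csf3r, Il1b, Clec4e, Trem1, Fpr1, Fpr2, Mmp8 and Mmp9, are transcripts for which neutrophils are a major source, and they were taken by symbol from the count tables of epididymal fat and quadriceps. All 10 were found in fat (16962 genes) and 4 in quadriceps (S100a8, S100a9, Csf3r and Mmp9; 12831 genes), of 17194 genes in either; the other 6 were not analysed in muscle. The series asked how loss of Il6 from pancreatic tumor cells changes wasting tissues. Male C57BL/6J mice aged 8 weeks received sham surgery (no tumor) or an injection into the pancreas of KPC cells, a mouse pancreatic tumor line. The KPC group carried 1 clone treated with CRISPR/Cas9 and a null guide, and the KPC IL6KO group carried 1 clone edited in Il6. Each tumor group is thus a single clone. The hosts kept intact Il6, so that Il6 in the host tissues is no check of these labels. All mice were killed when the KPC group showed wasting. Epididymal fat came from 4 mice of each group, numbered 5 to 8. Quadriceps came from 4 mice of each tumor group and 3 no tumor mice. Within a tissue there was 1 library per mouse. The fat and muscle libraries carry different numbers, but whether they came from separate mice is not stated, and they were processed separately.

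Neutrophils are short-lived granulocytes that leave the blood at sites of inflammation. S100a8 and S100a9 encode both chains of calprotectin, an abundant cytosolic protein of neutrophils and young monocytes. Csf3r is the receptor for G-CSF, the growth factor of the lineage, and Fpr1 and Fpr2 are chemoattractant receptors for formylated peptides. Trem1 amplifies and Clec4e (Mincle) starts innate activation, Il1b is a pyrogenic cytokine, and Mmp8 and Mmp9 are the collagenase and the gelatinase of neutrophil granules. None of the 10 is confined to neutrophils. Monocytes and macrophages transcribe Il1b, Clec4e, Trem1, Fpr1, Fpr2 and Mmp9 when activated. The study itself reported granulocyte adhesion among the top fat pathways and, by deconvolution, a neutrophil difference in KPC fat against no tumor. The direction of the 10 genes in fat is thus not independent evidence.

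The promoters of S100a9, Trem1, Fpr2 and Mmp8 are shown because these are the 4 genes called in KPC fat by both less strict tests below. S100a8 and S100a9 are a gene pair on chromosome 3, with a gap of 22596 bp; the S100a8 window is not shown, since a GENCODE start of the gene (GRCm38, chr3:90668978-90670035) lies inside it. The windows are the 250 bases before the RefSeq gene start (GRCm38.p6), 5′ to 3′ on the strand of the gene, with matches to the searched letters in capitals.
S100a9, chr3:90695722-90695971, - strand: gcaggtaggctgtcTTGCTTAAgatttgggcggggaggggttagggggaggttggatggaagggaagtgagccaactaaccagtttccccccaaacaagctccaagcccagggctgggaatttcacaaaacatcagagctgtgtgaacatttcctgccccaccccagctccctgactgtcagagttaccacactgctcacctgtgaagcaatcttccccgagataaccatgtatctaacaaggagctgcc
Trem1, chr17:48232489-48232738, + strand: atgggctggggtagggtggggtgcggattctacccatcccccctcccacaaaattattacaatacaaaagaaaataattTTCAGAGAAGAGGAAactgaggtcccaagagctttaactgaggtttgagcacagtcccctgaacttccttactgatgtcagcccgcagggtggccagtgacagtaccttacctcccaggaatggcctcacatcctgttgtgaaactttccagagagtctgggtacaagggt
Fpr2, chr17:17887574-17887823, + strand: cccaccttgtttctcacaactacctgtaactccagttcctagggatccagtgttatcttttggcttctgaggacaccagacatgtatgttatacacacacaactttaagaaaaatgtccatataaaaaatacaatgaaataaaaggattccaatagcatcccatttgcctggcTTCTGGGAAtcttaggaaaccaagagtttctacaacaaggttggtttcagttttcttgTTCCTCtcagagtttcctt
Mmp8, chr9:7558179-7558428, + strand: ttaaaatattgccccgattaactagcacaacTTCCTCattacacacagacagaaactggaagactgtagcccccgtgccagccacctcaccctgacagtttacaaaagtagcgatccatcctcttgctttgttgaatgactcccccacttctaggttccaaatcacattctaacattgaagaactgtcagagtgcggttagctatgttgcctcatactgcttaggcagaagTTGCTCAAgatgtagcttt
Letters of 4 motifs of myeloid and inflammatory factors, listed next, were searched on both strands in the 9 members with a window; Mmp9 had none in the table used. The PU.1 core GAGGAA was in 6 of 9 windows and in 23.3% of all 32851 promoter windows of this length. The S100a8 window held 2 matches and those of Trem1, Fpr2 and Mmp8 held 1 each. The Csf3r window, with 1 match, also holds a GENCODE start of its gene (chr4:126024550). That match and 1 of the 2 in S100a8 lie after the GENCODE start, and both windows are counted in the 6. The CEBP core TTGCNNAA was in 3 of 9 windows (9.56% of all), those of S100a9, Clec4e and Mmp8. The STAT letters TTCNNNGAA were in 2 of 9 windows (7.02% of all), those of Trem1 and Fpr2, and the AP-1 letters TGANTCA were in 0 of 9 (6.75% of all). In Trem1 the STAT and the PU.1 matches lie next to each other without overlap. A match describes the letters only, and whether any factor binds there was not measured.

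In these libraries 3 counts corresponded to 0.0462 to 0.154 CPM (counts scaled to a fixed library total), the level taken as not distinguished from 0. Library totals were 26306377 to 56308545 counts in fat and 19259763 to 74907810 in quadriceps. Nothing in the labels of the fat libraries sets any mouse apart, but their content differed. The summed CPM of 12 epididymis genes (led by Gpx5) was 749 to 97088 over the 12 fat libraries, and it was 75392 CPM or more in no tumor 5, no tumor 7 and KPC IL6KO 6. Summed skeletal muscle genes were at 9.04 to 281 CPM in no tumor fat, at 2.16 to 5.41 CPM in KPC fat, below every control, and at 94.0 to 2511 CPM in KPC IL6KO fat. Adipocyte genes were present in all fat libraries (1132 to 20273 CPM summed) and muscle genes in all quadriceps libraries (117044 CPM or more).

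In epididymal fat, 9 of the 10 genes were higher in every KPC mouse than in every no tumor mouse, all but Mmp9. Of all fat genes, 6.52% had such a separation upward. The median log2 fold change of the 10 genes was 2.88, beside -0.10 over all genes. No gene passed the criterion used for a call by the edgeR quasi-likelihood test, in which the FDR may not exceed 0.05 and the FC must reach 1.5: 0 of 10 members and 0% of all genes were called. At an unadjusted p below 0.05, the same test had 9 of 10 members higher in KPC, against 6.26% of all genes. Bulk tissue cannot tell apart a change in the number of cells of a type and a change in RNA per cell. This holds for rises and falls, and for each level below.

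**Figure D1:**
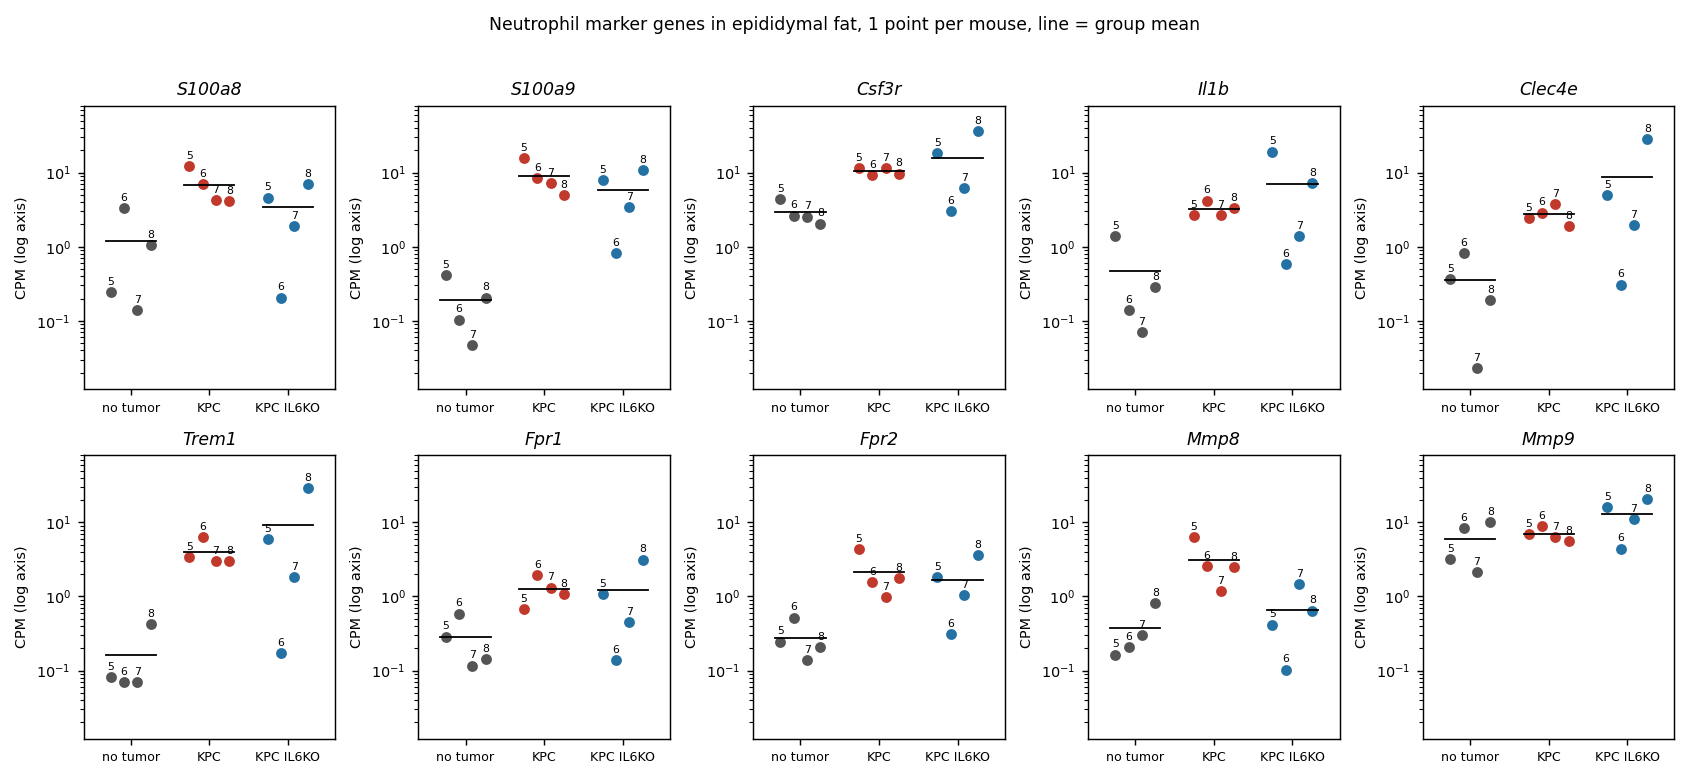
CPM of the 10 genes in each epididymal fat library on a log axis, 1 point per mouse with its number, with a line at the group mean. In 9 panels the 4 KPC points lie above all 4 no tumor points, and in each panel KPC IL6KO 6 is the lowest KPC IL6KO point.

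S100a9 had the largest separation. It was at 0.409, 0.104, 0.0465 and 0.206 CPM in no tumor 5 to 8, at 15.7, 8.42, 7.24 and 5.01 CPM in KPC 5 to 8, and at 7.88, 0.823, 3.39 and 10.9 CPM in KPC IL6KO 5 to 8. It was the single member for which both tumor groups lay wholly above the controls. The log2 FC was 5.58 ± 0.93 (SE) in KPC (FDR = 0.0919, edgeR quasi-likelihood test) and 4.92 ± 0.90 in KPC IL6KO (FDR = 0.385, same test). No tumor 6 and 7 held 3 and 2 counts of S100a9, not distinguished from 0, which leaves the size of both changes uncertain. S100a8 was at 0.246, 3.29, 0.139 and 1.06 CPM in no tumor fat, at 12.2, 6.99, 4.21 and 4.16 CPM in KPC and at 4.61, 0.206, 1.90 and 7.03 CPM in KPC IL6KO. The controls reached nearer to the tumor groups than for its partner, and the log2 FC was 2.54 ± 1.09 in KPC (FDR = 0.384, edgeR quasi-likelihood test).

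The receptors among the 10 genes all had smaller log2 FCs in KPC than S100a9, and Trem1 came nearest to it. Trem1 was at 0.0819, 0.0692, 0.0697 and 0.427 CPM in no tumor, at 3.42, 6.36, 3.03 and 3.02 CPM in KPC and at 5.96, 0.171, 1.84 and 29.0 CPM in KPC IL6KO. Only no tumor 8 exceeded 0.0819 CPM among the controls. No tumor 5 to 7 held 2, 2 and 3 counts of Trem1, not distinguished from 0. The log2 FC in KPC was 4.51 ± 1.28 (FDR = 0.244, edgeR quasi-likelihood test), and these low counts leave its size uncertain. Clec4e was at 0.368, 0.830, 0.0232 and 0.190 CPM in no tumor, at 2.42, 2.89, 3.77 and 1.92 CPM in KPC and at 4.98, 0.309, 1.96 and 28.2 CPM in KPC IL6KO. KPC IL6KO 8 thus exceeded every other library for both activating receptors, and for Clec4e the log2 FC was 2.98 ± 1.22 in KPC and 4.66 ± 1.30 in KPC IL6KO. Csf3r, the most tightly grouped member in KPC fat, was at 4.38, 2.63, 2.56 and 2.06 CPM in no tumor, at 11.4, 9.20, 11.5 and 9.69 CPM in KPC and at 18.5, 3.05, 6.21 and 36.1 CPM in KPC IL6KO. Its log2 FC in KPC was 1.85 ± 0.63 (FDR = 0.298, edgeR quasi-likelihood test). The KPC mean was 10.4 ± 1.18 CPM (SD, n = 4), whereas in KPC IL6KO the SD was nearly as large as the mean of 16.0 CPM.

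Both formyl peptide receptors were low. Fpr1 and Fpr2 are neighbours on chromosome 17, with 3883 bp between them and on opposite strands. Fpr2 was at 0.246, 0.519, 0.139 and 0.206 CPM in no tumor, at 4.35, 1.58, 0.977 and 1.76 CPM in KPC and at 1.82, 0.309, 1.04 and 3.58 CPM in KPC IL6KO, with a log2 FC of 2.96 ± 0.80 in KPC. Fpr1 was at 0.286, 0.588, 0.116 and 0.142 CPM in no tumor, at 0.672, 1.95, 1.31 and 1.07 CPM in KPC and at 1.08, 0.137, 0.446 and 3.15 CPM in KPC IL6KO. Its lowest KPC mouse lay just above the highest control, and the log2 FC in KPC was 2.15 ± 0.89. Reads of the related Fpr genes could have been split in counting, which was not tested.

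Il1b in KPC fat was grouped between 2.69 and 4.18 CPM, and in KPC IL6KO it spread widely. The values were 1.39, 0.138, 0.0697 and 0.285 CPM in no tumor, 2.69, 4.18, 2.70 and 3.32 CPM in KPC, and 19.2, 0.583, 1.40 and 7.15 CPM in KPC IL6KO. The log2 FC was 2.79 ± 1.12 in KPC and 3.93 ± 1.17 in KPC IL6KO. The 2 metalloproteinases parted. Mmp8 was at 0.164, 0.208, 0.302 and 0.806 CPM in no tumor, at 6.37, 2.55, 1.18 and 2.47 CPM in KPC and at 0.417, 0.103, 1.46 and 0.642 CPM in KPC IL6KO, with a log2 FC of 3.05 ± 0.86 in KPC and 0.79 ± 0.81 in KPC IL6KO. Mmp9 overlapped between all groups at 3.19, 8.27, 2.12 and 10.2 CPM in no tumor, 6.95, 8.82, 6.33 and 5.63 CPM in KPC, and 15.9, 4.42, 11.1 and 20.6 CPM in KPC IL6KO. Its log2 FC in KPC was 0.22, with a 95% interval of -0.97 to 1.41.

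On the scale of RPKM (CPM divided by exon length in kilobases), which allows levels of different genes to be compared, the order in KPC fat was S100a9 (17.4 ± 8.87), S100a8 (9.92 ± 5.43), Csf3r (2.89 ± 0.33), Mmp9 (1.96 ± 0.39), Il1b (1.69 ± 0.37), Fpr2 (1.67 ± 1.15), Trem1 (1.32 ± 0.54), Mmp8 (1.30 ± 0.92), Fpr1 (0.945 ± 0.404) and Clec4e (0.554 ± 0.159; mean ± SD, n = 4). Only the steps from S100a8 to Csf3r and from Csf3r to Mmp9 exceeded the larger SD of the neighbours. In no tumor fat the highest were S100a8 (1.70 ± 2.11) and Mmp9 (1.68 ± 1.10), and S100a9 was at 0.366 ± 0.306.

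Less strict tests called some of these differences. The edgeR likelihood ratio test called S100a9 (FDR = 6.44e-06), Trem1 (FDR = 0.0202), Fpr2 (FDR = 0.0235) and Mmp8 (FDR = 0.0302) higher in KPC than in no tumor, 4 of 10, where 1.58% of all genes were called higher. DESeq2 called the same 4, where it called 2.15% of all genes higher. Data were simulated for this comparison with 200 genes changed 4-fold, up or down, and the same spread for every gene, which real genes do not share. There the quasi-likelihood test found 10, the likelihood ratio test 13 and DESeq2 45 of the 200, and DESeq2 also called 19 others. The fitted log2 changes of the 200 genes had a median size of 1.96 by edgeR.

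**Figure D2:**
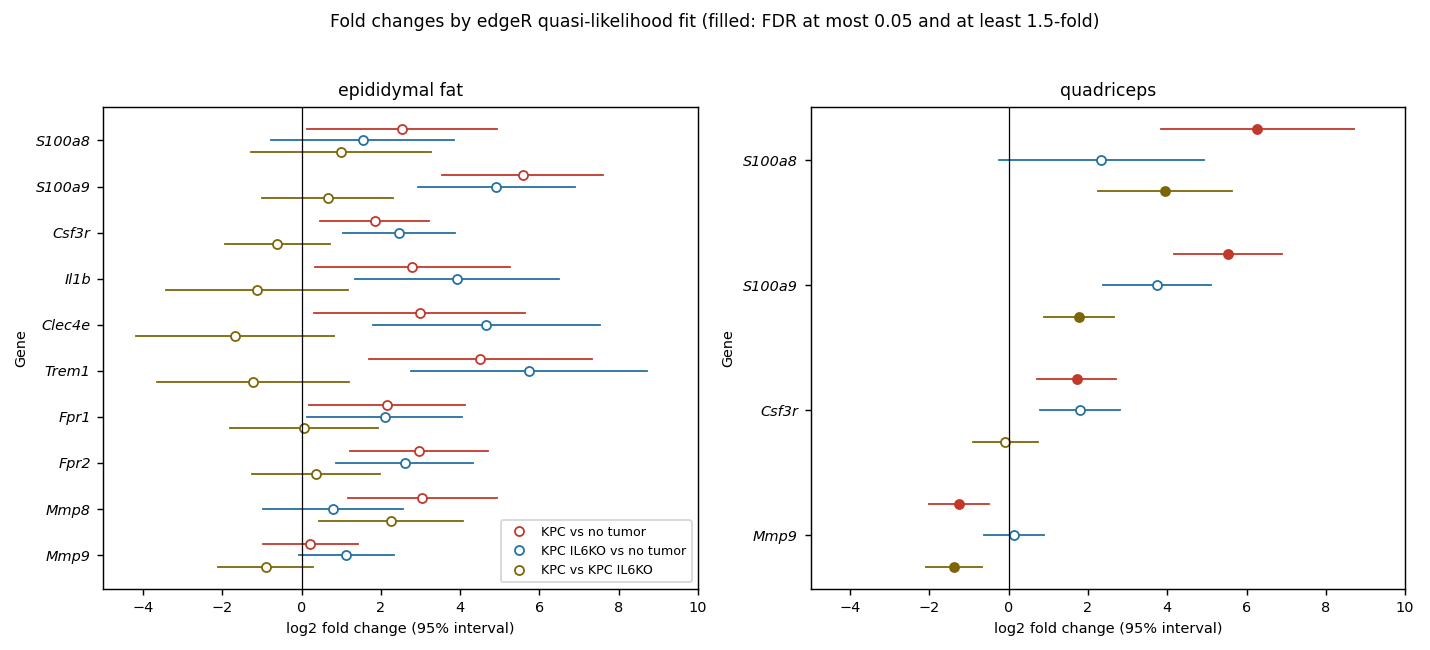
Log2 fold changes with 95% intervals from the edgeR quasi-likelihood fit, for 3 comparisons in fat (10 genes) and quadriceps (4 genes), filled where called. All fat points are open; in quadriceps S100a8, S100a9 and Csf3r are called higher and Mmp9 lower in KPC than in no tumor.

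The comparison of KPC IL6KO with no tumor used the same control libraries. Here S100a9 alone was higher in every mouse (1 of 10; 1.52% of all genes), and the median log2 FC was 2.53, beside -0.03 over all genes. The quasi-likelihood test called 0 of 10 (0% of all genes), and 7 of 10 were higher at an unadjusted p below 0.05 (8.17% of all genes). The likelihood ratio test called 5 of 10 higher (1.23% of all genes), S100a9 (FDR = 0.000212), Trem1 (FDR = 0.00644), Clec4e (FDR = 0.0257), Csf3r (FDR = 0.0295) and Il1b (FDR = 0.0463). DESeq2 called these and Fpr2 (FDR = 0.0479), 6 of 10 (1.66% of all genes).

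KPC IL6KO 6 decided the overlap. It was the lowest library of its group for all 10 genes and lay within the range of the controls, or below it, for all but S100a9. Without it 7 of 10 genes, S100a9, Csf3r, Il1b, Clec4e, Trem1, Fpr2 and Mmp9, were higher in the 3 remaining mice than in every control, and 7.63% of all genes were; this alternative was chosen after the data were seen. Without it, S100a9 was also called by the quasi-likelihood test in KPC (FDR = 0.0267, with 0.0825% of all genes called higher) and in KPC IL6KO (FDR = 0.0454, with 0.0707%).

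Between the tumor groups, 5 of 10 genes had a positive and 5 a negative log2 FC (KPC relative to KPC IL6KO), with a median of -0.28 beside -0.05 over all genes. The quasi-likelihood test called 0 of 10 (0% of all genes), the likelihood ratio test 0 of 10 (0.389% of all genes) and DESeq2 0 of 10 (0.737% of all genes). Mmp8 had the largest difference, 2.26 ± 0.83 on the log2 scale (unadjusted p = 0.0198, FDR = 0.680, edgeR quasi-likelihood test), with a mean of 3.14 ± 2.24 CPM in KPC against 0.654 ± 0.578 CPM in KPC IL6KO (SD, n = 4). KPC 7 at 1.18 CPM lay below KPC IL6KO 7 at 1.46 CPM. The intervals of the other members were wide. For S100a9 the log2 difference was 0.66, with a 95% interval of -0.99 to 2.31, and for Clec4e it was -1.69, with an interval of -4.19 to 0.81. Both intervals include 0 and differences of over 1.5-fold in either direction.

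In quadriceps the calprotectin genes and Csf3r rose and Mmp9 fell in KPC. S100a9 was at 0.0519, 0.137 and 0 CPM in no tumor 1 to 3 (3, 7 and 0 counts), at 1.54, 4.62, 3.08 and 5.16 CPM in KPC 1 to 4 and at 1.04, 0.771, 0.928 and 1.44 CPM in KPC IL6KO 1 to 4. The 3 groups were stacked without overlap. It rose by 5.52 ± 0.62 (log2, SE) in KPC (FDR = 1.77e-05, edgeR quasi-likelihood test). S100a8 was at 0.0346, 0.118 and 0.0512 CPM in no tumor (2, 6 and 1 counts), at 1.65, 2.50, 16.0 and 2.22 CPM in KPC and at 0.256, 0.281, 0.205 and 0.703 CPM in KPC IL6KO, also without overlap. It rose by 6.27 ± 1.11 in KPC (FDR = 0.000410, edgeR quasi-likelihood test). Single libraries moved these values. Without KPC 3 the log2 FC of S100a8 in KPC was 4.87, and without no tumor 2 it was 7.07 for S100a8 and 6.50 for S100a9. All stayed called.

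Csf3r was at 0.571, 0.294 and 0.307 CPM in no tumor quadriceps, at 0.570, 2.11, 1.26 and 1.37 CPM in KPC and at 1.93, 0.999, 1.12 and 1.59 CPM in KPC IL6KO. KPC 1 lay at the level of the highest control. The log2 FC was 1.71 ± 0.46 in KPC (FDR = 0.00583, edgeR quasi-likelihood test) and 1.80 ± 0.46 in KPC IL6KO (FDR = 0.298, same test). Mmp9 was at 2.20, 2.45 and 4.15 CPM in no tumor, at 1.16, 1.83, 0.802 and 1.04 CPM in KPC and at 4.14, 2.56, 1.97 and 3.91 CPM in KPC IL6KO. Every KPC mouse lay below every other mouse, and the log2 FC in KPC was -1.26 ± 0.35 (FDR = 0.00743, edgeR quasi-likelihood test). The 3 members called higher stand against 26.7% of all genes called higher and Mmp9 against 29% called lower, so calls were common in KPC muscle. Of the 4, 2 lay wholly above the controls, as did 32.3% of all genes.

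**Figure D3:**
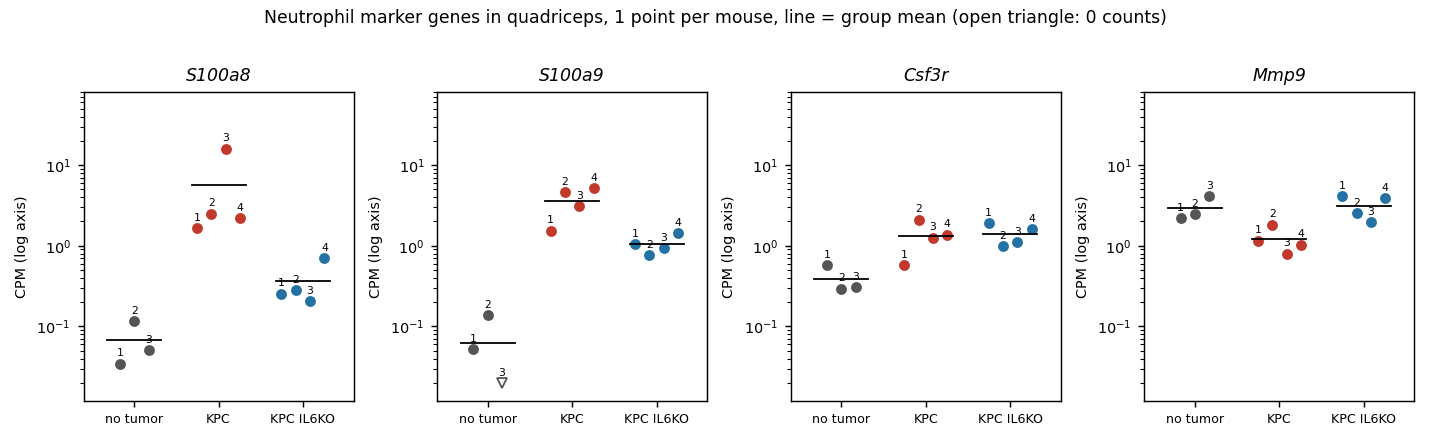
CPM of the 4 genes of the quadriceps table in each library on a log axis, 1 point per mouse with its number, with a line at the group mean; the open triangle marks a library with 0 counts. For S100a8 and S100a9 the groups are stacked without overlap, and for Mmp9 the KPC points are the lowest.

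In quadriceps of KPC IL6KO mice 0 of 4 members were called by the quasi-likelihood test (0% of all genes), with 2 of 4 higher at an unadjusted p below 0.05 (2.19% of all genes). S100a8, S100a9 and Csf3r, 3 of 4, lay wholly above the controls, as did 7.54% of all genes. For S100a9 the log2 FC was 3.74 ± 0.63 (FDR = 0.185, edgeR quasi-likelihood test). The likelihood ratio test (FDR = 1.68e-06) and DESeq2 (FDR = 7.67e-06) called it, and both also called Csf3r, so that each called 2 of 4 higher, where the former called 0.195% and the latter 0.234% of all genes higher. Relative to KPC IL6KO, KPC muscle was higher in S100a8 by 3.94 ± 0.78 (FDR = 0.000805) and in S100a9 by 1.78 ± 0.40 (FDR = 0.00207), and lower in Mmp9, at -1.38 ± 0.33 (FDR = 0.00272; log2, edgeR quasi-likelihood test). Of all genes, 26.4% were called higher and 27.3% lower in that comparison. Without KPC 3 the S100a8 difference was 2.55 and still called. For Csf3r the log2 difference was -0.09, with a 95% interval of -0.91 to 0.73.

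The calprotectin genes did not always move together. Their counts stood at 0.25 to 0.831 S100a8 per S100a9 in the 8 tumor-bearing fat libraries and at 0.220 to 1.07 in 7 of the 8 tumor-bearing quadriceps libraries. Quadriceps KPC 3 had 977 counts of S100a8 and 188 of S100a9, a ratio of 5.20. Among no tumor fat libraries, no tumor 8 had 67 and 13 counts, a ratio of 5.15, and no tumor 6 had 95 and 3 counts. The same pair of control libraries had the highest S100a8 and Mmp9 of their group, and 1 of the pair had the highest Clec4e, Trem1, Fpr1, Fpr2 and Mmp8, whereas no tumor 5 had the highest S100a9, Csf3r and Il1b. They were also the pair with least epididymis RNA among the controls (13699 and 19074 CPM summed) and the highest Ltf-led sum of other neutrophil list genes (784 and 373 CPM). The part of either in their S100a8 was not tested.

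**Figure D4:**
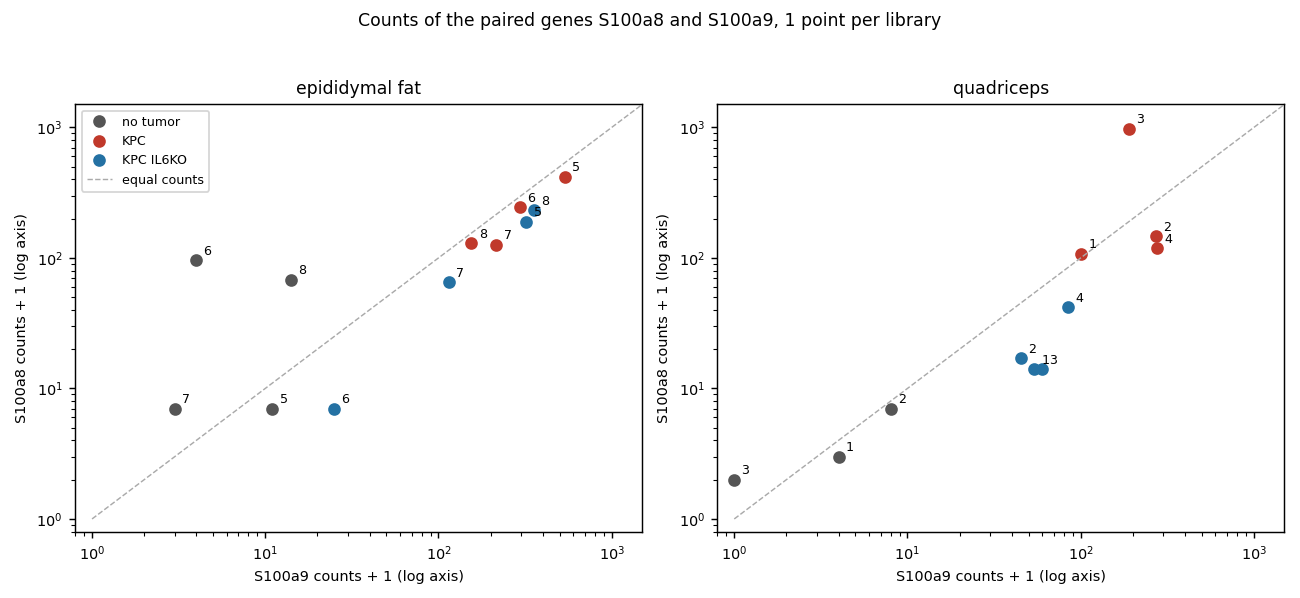
S100a8 against S100a9 counts (each plus 1, log axes) in fat and quadriceps, 1 point per library with its number; the dashed line marks equal counts. Most tumor-bearing libraries lie just under the line, with fat no tumor 6 and 8 and quadriceps KPC 3 well above it.

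The response to the tumor was compared between the tissues for the 4 shared members in a single fit over 12599 genes. The quasi-likelihood test called 0 of 4 for KPC against no tumor (36.9% of all genes), 0 of 4 for KPC IL6KO against no tumor (0% of all genes) and 0 of 4 for KPC against KPC IL6KO (31.6% of all genes). For S100a9 in KPC, the fat response minus the quadriceps response was 0.16 on the log2 scale, with a 95% interval of -2.21 to 2.53. For S100a8 it was -3.62 (FDR = 0.0777), and for Mmp9 it was 1.57 (FDR = 0.0799, both edgeR quasi-likelihood test). Tissue and library batch cannot be told apart in this contrast, and whether the tissues came from the same mice is not known. The fit took all libraries as independent.

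Other genes of neutrophil biology were taken from lists by role. In KPC fat, the quasi-likelihood test called 0 genes of any list (0% of all genes), so counts of separated mice are given. Of all genes, 6.52% lay wholly above the controls. Of 6 measured granule protein genes, 2 lay wholly above the controls, and the most abundant, Lcn2, did not (2442 ± 724 CPM in KPC, 2152 ± 2508 in no tumor; SD, n = 4). Of 21 receptors and adhesion molecules, 14 lay wholly above the controls, with a median log2 FC of 1.60. Itgam, the integrin chain CD11b, was the most abundant of them, at a log2 FC of 2.41 (FDR = 0.311). Of 13 oxidative burst and signaling genes 6 lay wholly above. The transcription factors of granulopoiesis had 1 of 7 wholly above, and Cebpa, the most abundant, had a log2 FC of -2.04 (FDR = 0.288).

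The ligands that recruit neutrophils and the endothelial adhesion genes had 11 of 15 wholly above and 1 (Csf3, which encodes the ligand of Csf3r) wholly below the controls, with a median log2 FC of 2.72. Among all genes, 6.52% lay wholly above and 744 of 16962 wholly below. Vcam1, the most abundant, had a log2 FC of 2.35 (FDR = 0.329). Chosen after their values were seen, Cxcl1, a chemokine for the receptor Cxcr2, was at 0.165 ± 0.076 CPM in no tumor, 2.91 ± 2.15 CPM in KPC and 1.76 ± 1.37 CPM in the KPC IL6KO group, and Cxcr2 itself at 0.0363 ± 0.0426, 2.24 ± 0.66 and 1.94 ± 2.06 CPM (SD, n = 4). Of 11 genes of the IL-1 pathway, 8 lay wholly above in KPC. Il1r1, the signaling receptor, was the most abundant at a log2 FC of 2.08 (FDR = 0.199), and the inhibitors of Il1b named after their values were seen were also higher in every KPC mouse, Il1rn at a log2 FC of 4.27 and the decoy receptor Il1r2 at 5.48. Of 16 ligands, adaptors and inhibitors of the members, 6 lay wholly above. Timp2, the most abundant, had a log2 FC of 0.17, whereas Timp1, another metalloproteinase inhibitor, again chosen after its values were seen, had 4.99 (FDR = 0.115, edgeR quasi-likelihood test).

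In KPC quadriceps, 26.7% of all genes were called higher and 29% lower, and the counts of each list stand beside these shares. Of the granule genes, 2 of 3 were called higher. Lcn2 was at 0.712 ± 0.078 CPM in no tumor (n = 3) and 54.4 ± 38.7 CPM in KPC (n = 4), a log2 FC of 6.27 (FDR = 9.73e-05, edgeR quasi-likelihood test), and Chil3 was at least 14.95-fold higher than a floor of 3 counts per library. Lyz2, the most abundant, had a log2 FC of -0.40. Among receptors and adhesion molecules 0 of 11 were called higher and 2 lower, Cd300ld and Selplg, with the most abundant, Fcgr3, at a log2 FC of 0.25. Among oxidative burst and signaling genes 1 of 12 (Fgr) was called higher and 6 lower, Cyba, the most abundant, among them at -0.66. Transcription factors of granulopoiesis were called higher in 3 of 6, Runx1 (log2 FC 4.23), Cebpd (3.92) and Cebpb (1.43), and Cebpa was called lower (-2.51). Recruiting and adhesion genes had 2 of 4 called higher (Selp and Icam1) and 2 lower (Csf1 and Vcam1). The IL-1 pathway had 2 of 7 called higher (Il1r1 and Myd88) and 2 lower (Il1rap and Pycard), and the partners of the members had 3 of 15 called higher, led by Pglyrp1, a ligand of Trem1, and 4 lower.

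Markers of some other cells were also higher in KPC fat, and others were not. Of 8 monocyte genes 3 lay wholly above the controls (6.52% of all genes did), with a median log2 FC of 0.65. Mast cell genes had 1 of 7 wholly above (median -0.71). Dendritic cell genes had 0 of 7 (median 0.02) and T, NK and B cell genes 0 of 11 (median -0.94). Of 12 macrophage genes, 8 lay wholly above the controls in KPC, and their summed level was 244 to 782 CPM in no tumor, 938 to 1652 CPM in KPC and 402 to 2123 CPM in KPC IL6KO. KPC IL6KO 6 was the lowest of its group (402 CPM) and KPC IL6KO 8 the highest of all (2123 CPM), as they were for Csf3r, Clec4e and Trem1. Of 12 other neutrophil genes, 6 were measured in fat and 4 of them (Cxcr2, Retnlg, Asprv1 and Il1r2) lay wholly above the controls in KPC. Ltf went the other way, with a log2 FC of -2.63 in KPC. The summed level of the 6 genes, led by Ltf, was 9.86 to 784 CPM in no tumor, 51.0 to 158 CPM in KPC and 20.5 to 430 CPM in KPC IL6KO. Ly6g, a narrower marker of neutrophils, was not analysed here, nor were Mpo, Elane, Camp and Ngp of the same list. Eosinophil genes were at 0.163 to 1.09 CPM in no tumor and 11.8 to 37.6 CPM in KPC, and red cell and platelet genes at 32.8 to 65.2 and 66.2 to 108 CPM. Pancreas and stomach epithelium genes were at 131 to 307 CPM in no tumor and 343 to 1007 CPM in KPC. Other content was lower in KPC than in no tumor fat. All 8 adipocyte genes had a negative log2 FC (median -1.43, 3 of 8 at an unadjusted p below 0.05), with sums of 1132 to 20273 CPM in no tumor and 1822 to 9080 CPM in KPC, and 7 of 8 skeletal muscle genes were lower at an unadjusted p below 0.05. The quasi-likelihood test called 0 of either list (0% of all genes), and by it 1000 of 16962 genes were lower at an unadjusted p below 0.05. The part of monocytes, macrophages, eosinophils, other immune cells, blood, epithelium, adipocytes and muscle in the members' levels was not tested.

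**Figure D5:**
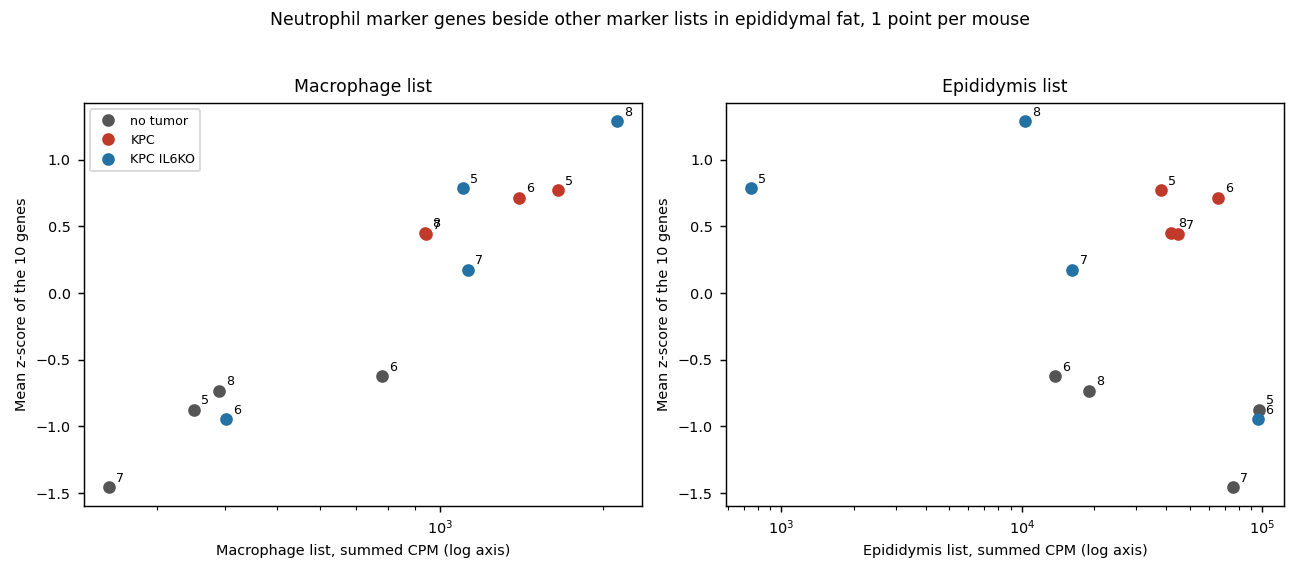
Mean z-score of the 10 genes in each fat library (log2 CPM, each gene scaled over 12 libraries) against the summed CPM of 12 macrophage genes (left) and 12 epididymis genes (right), on log axes. KPC IL6KO 6 lies with the no tumor mice in the left panel, at 402 CPM, and KPC IL6KO 8 is at the upper right, at 2123 CPM. The libraries richest in epididymis RNA, no tumor 5, no tumor 7 and KPC IL6KO 6, have the lowest scores (-0.88, -1.46 and -0.95).

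Over the 12 fat libraries, the genes whose log2 CPM followed the mean z-score of the 10 members most closely were Ms4a8a (Pearson r = 0.988), Sla (0.981), Ccr1 (0.979), Slfn2 (0.978) and Msr1 (0.977), the last a macrophage scavenger receptor and Ccr1 a chemokine receptor. These points share the difference between groups, library depth and tissue content. Over the 11 quadriceps libraries the closest were 4632427E13Rik (0.889), Alas2 (0.870), Gm14005 (0.864), B3gnt3 (0.827) and Nxn (0.820), for 4 members. That score averages genes that oppose each other, as Mmp9 correlated at -0.74 with S100a8 and at -0.56 with S100a9. It placed KPC IL6KO 4 (0.61) above KPC 3 (0.41), so a gene close to the score need not follow each member. Alas2, which makes heme in red cell precursors, rose in KPC quadriceps by 2.41 on the log2 scale (FDR = 0.000245, edgeR quasi-likelihood test). In quadriceps the 10 measured macrophage genes had 1 called higher (Cd68) and 2 lower (Adgre1 and Mrc1) in KPC, with summed levels of 87.5 to 133 CPM in no tumor and 40.6 to 172 CPM in KPC. Of 3 other neutrophil genes measured there, 1 was called higher and 0 lower in KPC. Of all genes, 26.7% were called higher and 29% lower. In KPC IL6KO quadriceps those 3 neutrophil genes had a median log2 FC of -0.41 against no tumor. The part of blood in the muscle values was not tested.

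Within fat, the members followed each other to different degrees. Clec4e and Fpr1 (r = 0.931) and Csf3r and Clec4e (r = 0.929) were the pairs with the highest correlation of log2 CPM over the 12 libraries, and Mmp8 and Mmp9 (r = 0.277) the pair with the lowest. Mmp8 stood in each of the 5 weakest pairs.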

How the data were processed

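RNA from quadriceps and epididymal fat was sequenced in 23 libraries. Per the labels and methods, the authors mapped reads to mm10 with STAR and counted them per gene with featureCounts 1.5.1. The deposited values are raw counts, 1 table per tissue, without normalization. The sources name different library kits, and the authors left out 1 no tumor muscle sample. Counts were normalized by TMM and fitted with the edgeR 4.0.16 quasi-likelihood test (R 4.3.3; filterByExpr, which removed 0 genes), with the 3 groups of a tissue together, Benjamini-Hochberg FDR over all genes of the table, and calls at FDR of at most 0.05 and FC of at least 1.5. The responses of both tissues were compared over the 12599 shared genes in 1 further fit with an interaction term. The edgeR likelihood ratio test and DESeq2 1.42.0 were alternatives. CPM used the normalized library sizes and RPKM the exon length of GENCODE vM21. Figures used Python with matplotlib. Promoters came from RefSeq.

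The members and lists were chosen with earlier results of these data known. Text genes were all members, the most abundant gene and called genes of each list (where over 4, the 2 largest and 2 smallest changes), and the 5 genes per tissue most correlated with the members; others are marked as chosen after their values were seen. Some items that this rule or the labels name are not reported here. In simulated quadriceps data the quasi-likelihood test found 200 of 200 changed genes. Libraries of a group differed by more than sampling noise (chi-square per degree of freedom of at least 28.9). The numbers name different mice in each group and were not used as pairs. Same-numbered mice did not deviate together in every pair.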

Additional observations from a re-analysis of the deposited data

Results flagged for a closer look

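Of 38 groups of 4 mice tested over the members, 6 held a library far from the other 3 by Dixon's criterion. For normally distributed values chance alone flags about 1 in 20 groups. Untransformed CPM of low counts need not be so distributed, and genes measured in the same mice are not independent. That rate thus need not hold here. S100a8 in quadriceps KPC 3 was at 16.0 CPM, with the others at 1.65 to 2.50 CPM. S100a8 in quadriceps KPC IL6KO 4 was at 0.703 CPM, with the others at 0.205 to 0.281 CPM. In fat, Clec4e in KPC IL6KO 8 was at 28.2 CPM, with the others at 0.309 to 4.98 CPM. Trem1 in KPC 6 was at 6.36 CPM, with the others at 3.02 to 3.42 CPM, and Trem1 in no tumor 8 was at 0.427 CPM, with the others at 0.0692 to 0.0819 CPM. Il1b in no tumor 5 was at 1.39 CPM, with the others at 0.0697 to 0.285 CPM.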

How the results depend on the processing

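In fat, the number of members called in KPC against no tumor went from 0 to 4 with the likelihood ratio test (1.58% of all genes called higher), 4 with DESeq2 (2.15%), 1 with the newer quasi-likelihood fit (S100a9; 0.0884%), 3 with only the groups compared (S100a9, Csf3r and Trem1; 0.991%), 1 with the epididymis list as a covariate (S100a9; 1.32%) and 2 among KPC and no tumor libraries high in Gpx5 (S100a8 and Trem1; 2.04%; no tumor 5 and 7 as the controls). In KPC IL6KO against no tumor it went from 0 to 5 with the likelihood ratio test and 6 with DESeq2 in fat (1.23% and 1.66% of all genes called higher), and from 0 to 2 with each in quadriceps (0.195% and 0.234%). Requiring at least 10 counts in every library left 1 call, that of Mmp9, in KPC quadriceps against no tumor (4 otherwise) and 1 against KPC IL6KO (3 otherwise), since the other members no longer entered. For the response between tissues in KPC against no tumor it went from 0 to 1 with the likelihood ratio test and 1 with DESeq2 (S100a8, -3.64 and -3.78; 38.3% and 40.4% of all genes called in either direction).

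Leaving out each library gave 0 to 1 calls in fat for KPC and 0 to 1 for KPC IL6KO (S100a9 without KPC IL6KO 6), 0 to 0 between the tumor groups, and 4 to 4, 0 to 0 and 3 to 3 in quadriceps. For the response between tissues it gave 0 to 2, 0 to 0 and 0 to 1. There S100a8 was called without fat no tumor 7 (-4.00) or fat KPC IL6KO 6 (-3.62, and -3.18 between the tumor groups), and Mmp9 without fat no tumor 8 (2.01), fat KPC IL6KO 6 (1.57) or quadriceps KPC 2 (1.87); 34.6% to 39.6% of all genes were called in either direction in these fits. Members wholly above the controls numbered 9 to 9 (fat KPC), 1 to 7 (fat KPC IL6KO), 2 to 3 (quadriceps KPC) and 3 to 3 (quadriceps KPC IL6KO). Uncalled differences changed direction in KPC against KPC IL6KO fat (Fpr1 -0.31 to 1.16, Fpr2 -0.23 to 1.03, Il1b -1.52 to 0.081, Csf3r -0.96 to 0.18, Clec4e -2.09 to 0.18, Trem1 -1.63 to 0.57), for Mmp9 in fat KPC (-0.059 to 0.62) and quadriceps KPC IL6KO (-0.059 to 0.43) against no tumor, for Csf3r between the tumor groups in quadriceps (-0.40 to 0.17), and between tissues for S100a9 in KPC (-0.83 to 0.66), S100a8 in KPC IL6KO (-1.62 to 0.34) and Csf3r (-0.17 to 0.59, -0.15 to 0.98 and -0.72 to 0.40). The cause was not tested.

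With the replicate block the calls were 0, 0 and 0 in fat and 4, 0 and 3 in quadriceps, as without it, and Il1b (0.13) and Trem1 (0.11) changed direction between the tumor groups in fat, as they did with the epididymis covariate (0.57 and 0.13). Deviations of same-numbered mice correlated at -0.54 to 0.65. Mice of different numbers were not compared, so these values cannot decide whether the numbers carry a batch.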
